A study of Mus musculus with 19 samples.

Results

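The 10 genes described here, Serpina3n, Lcn2, Ptx3, Cd44, S1pr3, Cd109, Emp1, Steap4, Tgm1 and Aspg, are genes that published studies of injured brain list as induced in reactive astrocytes. They were chosen by name, with earlier results of these data known. Each name matched 1 of the 55416 genes in the deposited count table, and all 10 passed the filter on low counts that kept 19234 genes. Lcn2, Steap4 and Tgm1 had few saline reads, so they passed the filter only through their kainate libraries. Most of their products are secreted or sit at the cell surface. Aspg, an asparaginase, and Tgm1, a membrane-associated transglutaminase, are enzymes.

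Reactive astrocytes are astrocytes that respond to injury, seizure or inflammation by enlarging, raising intermediate filament proteins and releasing proteins into the tissue. Signals such as the interleukin 6 family, acting through STAT3, and interleukin 1 and tumour necrosis factor, acting through NF-kB, are known to drive this state. In a widely used scheme, Serpina3n, Lcn2, Cd44, Steap4, S1pr3 and Aspg are called pan-reactive, and Tgm1, Ptx3, Emp1 and Cd109 are called A2-type, a pattern first described after ischaemia.

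RNA was measured in the hippocampus of C57BL6 mice 4 days after status epilepticus induced by repeated low doses of kainate, a glutamate receptor agonist, or after saline injection. The controls, called WT, were EZH2(+/+);Syn1Cre(+/-), so they carried the Synapsin1-Cre driver too. The EZH2nHom mice, EZH2(-/-);Syn1Cre(+/-), carried the same driver with floxed EZH2 alleles, so the deletion of this histone methyltransferase was aimed at neurons and astrocytes were not its target. Saline groups held 5 libraries per genotype, and kainate groups held 5 WT and 4 EZH2nHom libraries. The labels name the right or whole hippocampus in different places, do not give age, and do not say whether each library came from its own animal, so p-values measure the spread between these libraries. That spread was estimated for each gene over all groups together.

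Total reads per library ran from 24496685 to 43948317. Ezh2 itself averaged 11.3 ± 1.17 CPM in WT saline and 13.6 ± 1.42 CPM in EZH2nHom saline libraries (SD, n = 5 each), and was not lower after kainate either (15.2 ± 4.53 against 17.5 ± 2.40 CPM). Counts over the whole gene include other cell types, and the deleted exons are not given in the sources used here, so these counts do not check the genotype labels. The labels also carry sample codes of unstated meaning. Of the first parts of these codes, 0 occur in both genotypes, so genotype and code prefix cannot be told apart. Within EZH2nHom, 0 occur in both the saline and the kainate group, so treatment and code prefix cannot be told apart there either. Xist was read at 418 to 658 CPM in replicates 1 and 2 of both WT groups and in EZH2nHom kainate replicate 1, and was at or below 3.15 CPM elsewhere. Astrocyte markers were present throughout. In bulk tissue, fewer cells of a type and less RNA per cell cannot be told apart, and these reads do not show which cell a transcript came from.

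The promoters of members that rose together were read for the motifs of the factors named above. RefSeq windows on GRCm38.p6, from 250 bases before to 50 bases after a start, matched 9 of the 10 members (all but Cd109) with 11 windows. On both strands, the STAT palindrome TTCNNNGAA occurred in 3 of the 11 windows, against 8.3% of 32851 windows in the table. It was found in Steap4 (TTCCCGGAA, starting 116 bases before the start), in the first window of Tgm1 (TTCCTAGAA at 173 and TTCCCAGAA at 64 bases before) and in the first window of Emp1 (TTCTTTGAA at 120 and TTCATAGAA at 22). The C/EBP form TTGCNNNA occurred in 7 of 11 windows against 33.4% of all windows, and the form TTNCGNAA in 1 (Steap4) against 2.47%. The letters TTGCGAAA in Steap4 match both forms. AP-1 TGANTCA occurred in 1 window (Emp1, where 1 of its matches overlaps the second STAT palindrome) against 7.81%, the NF-kB consensus in 2 (Ptx3, Steap4) against 8.46%, and TATAAA in 1 (Steap4) against 13.6%. The 250 bases before the start are printed for the 3 members with a STAT palindrome, for Lcn2 as the member with the largest fold after Tgm1, and for Serpina3n as the most abundant. Capitals mark STAT palindromes and the C/EBP forms. A match is a string of letters and was not tested as a binding site. The stretches are chr5:7960222-7960471 (plus strand), chr14:55713493-55713742 (minus), chr6:135362681-135362930 (plus), chr2:32387740-32387989 (minus) and chr12:104406458-104406707 (plus).
Steap4: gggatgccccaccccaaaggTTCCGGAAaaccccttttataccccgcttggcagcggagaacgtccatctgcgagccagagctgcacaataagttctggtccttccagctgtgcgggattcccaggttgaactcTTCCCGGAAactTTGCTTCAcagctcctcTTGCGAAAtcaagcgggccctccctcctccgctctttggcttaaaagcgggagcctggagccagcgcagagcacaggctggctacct
Tgm1: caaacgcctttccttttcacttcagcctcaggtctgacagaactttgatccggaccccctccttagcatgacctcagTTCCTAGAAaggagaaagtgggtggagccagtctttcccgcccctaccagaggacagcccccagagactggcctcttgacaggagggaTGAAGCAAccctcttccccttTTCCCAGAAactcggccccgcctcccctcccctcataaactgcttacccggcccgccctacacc
Emp1: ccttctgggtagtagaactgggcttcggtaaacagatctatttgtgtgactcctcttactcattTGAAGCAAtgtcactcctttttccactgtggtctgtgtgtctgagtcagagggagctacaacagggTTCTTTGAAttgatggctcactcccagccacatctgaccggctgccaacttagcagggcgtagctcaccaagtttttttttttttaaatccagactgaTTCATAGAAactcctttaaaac
Lcn2: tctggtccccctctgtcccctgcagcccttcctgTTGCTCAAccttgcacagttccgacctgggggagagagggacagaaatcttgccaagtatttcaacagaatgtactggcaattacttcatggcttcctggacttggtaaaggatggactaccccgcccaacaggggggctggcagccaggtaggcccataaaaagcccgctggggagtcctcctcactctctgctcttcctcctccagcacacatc
Serpina3n: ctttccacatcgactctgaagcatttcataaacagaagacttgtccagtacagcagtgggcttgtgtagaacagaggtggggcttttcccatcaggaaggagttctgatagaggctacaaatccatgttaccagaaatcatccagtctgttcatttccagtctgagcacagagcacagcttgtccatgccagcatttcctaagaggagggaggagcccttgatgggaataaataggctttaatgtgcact

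After kainate, all 10 members rose in both genotypes. In WT, 10 of 10 passed the test upward, where 9.47% of all genes did (edgeR quasi-likelihood test, Benjamini-Hochberg adjusted p under 0.05). In EZH2nHom, 10 of 10 passed, where 14.3% of all genes did. The members were chosen with earlier results of these data known, so these counts are a description. Lcn2, Steap4 and Tgm1 had to be high after kainate to be tested at all, so their calls add nothing to these counts. The other 7 members pass the filter from saline libraries alone, and 7 of 7 rose in each genotype. The median log2 change of all 10 members was 3.12 in WT and 4.08 in EZH2nHom, and the median of all genes tested was -0.02 in both. Lcn2, Steap4 and Tgm1 raise these medians and had to be high for the reason above. Changes of the other 7 ran from 1.52 to 3.89 in WT and from 2.05 to 4.5 in EZH2nHom. In WT the saline and kainate libraries did not overlap for 8 of 10 members, a pattern shown upward by 9.79% of all genes. In EZH2nHom they did not overlap for 10 of 10, against 9.93% of all genes. The 7 members that pass the filter from saline libraries were without overlap in both genotypes.

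**Figure D1:**
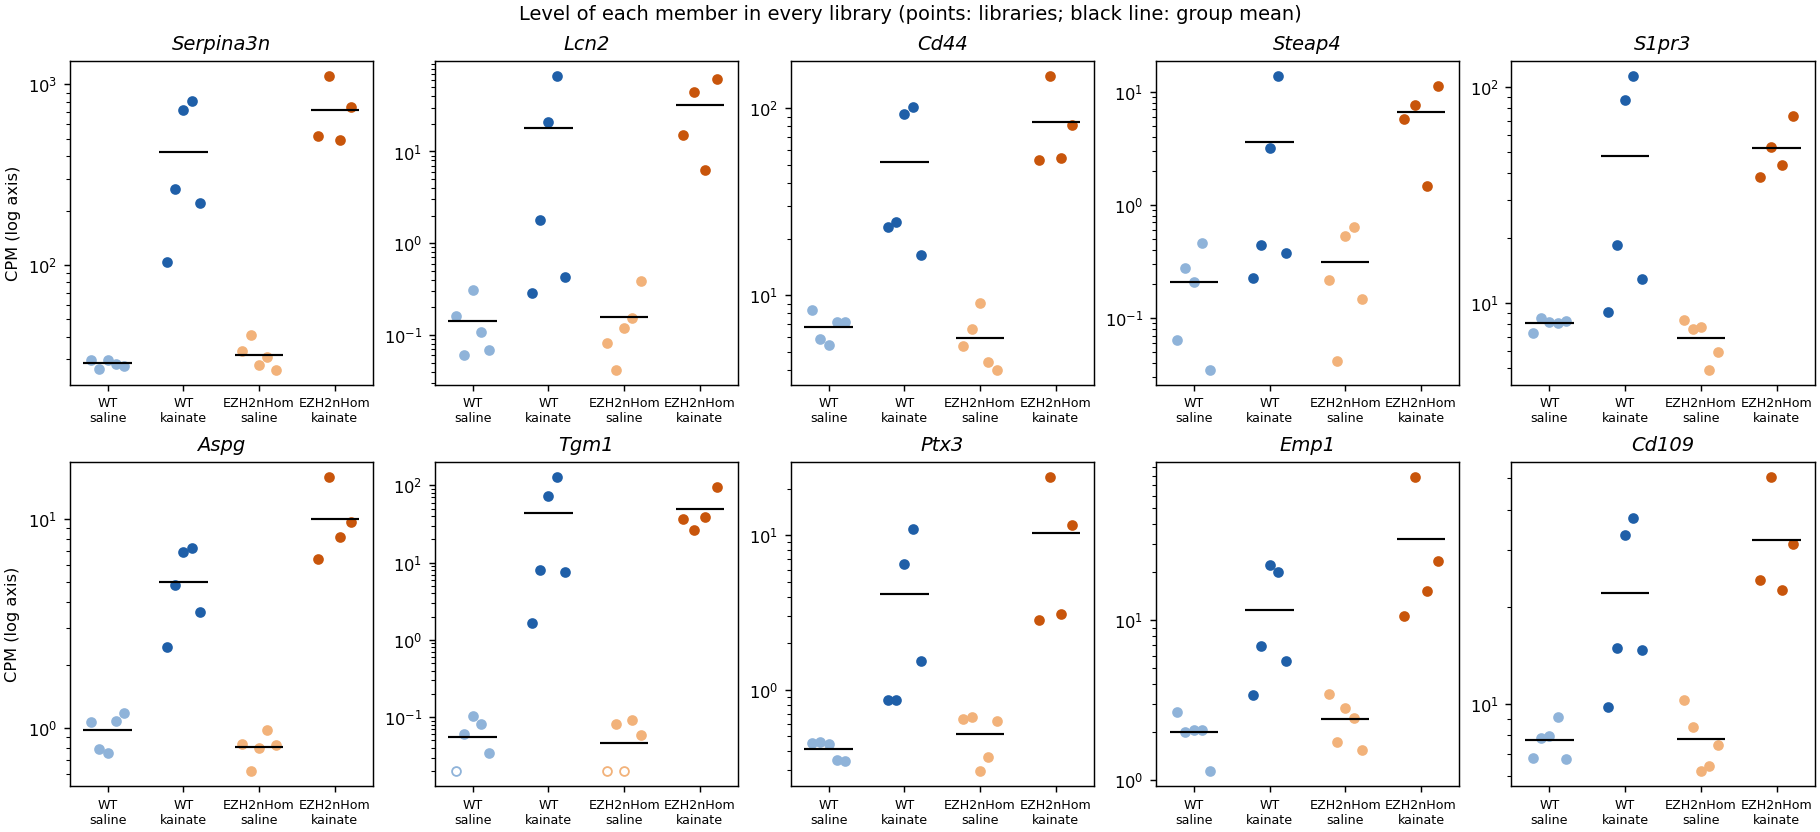
Counts per 1000000 reads (CPM, log axis) of the 10 members in the 19 libraries, by group; each point is a library, black lines are group means, and open circles at the foot of the Tgm1 panel are libraries with 0 reads. All kainate libraries lie above all saline libraries of their genotype except for Lcn2 and Steap4 in WT.

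Among the secreted products, Serpina3n, a serine protease inhibitor, was the most abundant. It stood at 29.8, 26.6, 29.8, 28.4 and 27.7 CPM in the WT saline libraries (replicates 1 to 5) and at 103, 262, 719, 804 and 221 CPM after kainate. In EZH2nHom it stood at 33.3, 40.7, 27.7, 31.0 and 26.1 CPM after saline and at 515, 1115, 495 and 752 CPM after kainate. The groups are far apart in both genotypes, yet the 5 WT kainate libraries span 7.80-fold where the WT saline libraries span 1.12-fold. The log2 change was 3.89 ± 0.44 (SE) in WT, edgeR adjusted p = 4.42e-05, and 4.5 ± 0.46 in EZH2nHom, adjusted p = 6.7e-06. In the GENCODE vM21 transcripts, 20.7% of the 32-base words of Serpina3n also occur in other genes, chiefly Serpina3g and Serpina3f. Serpina3g was far below it, with mean levels of 1.21 and 1.23 CPM in WT after saline and kainate, and 0.785 and 1.45 CPM in EZH2nHom.

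Lcn2, lipocalin 2, carries iron-binding siderophores and is released in inflammation. It was near the limit of counting after saline, with 2 to 9 reads per WT library and 1 to 13 per EZH2nHom library. After kainate it reached 0.288, 1.80, 21.0, 66.8 and 0.426 CPM in WT and 15.2, 44.3, 6.21 and 61.2 CPM in EZH2nHom. Replicate 1 of WT kainate, with 9 reads, lies within the saline range (0.0612 to 0.310 CPM), whereas all 4 EZH2nHom kainate libraries lie above theirs (0.0414 to 0.386 CPM). Its log2 change was 6.97 ± 1.48 in WT, edgeR adjusted p = 0.00504, and 7.59 ± 1.49 in EZH2nHom, adjusted p = 0.00137. Reads were summed over libraries and scaled for library size. Their ratio of kainate to saline was 108-fold in WT (95% exact interval 71.4 to 173) and 179-fold in EZH2nHom (122 to 275). Such intervals cover counting error only. Without WT kainate replicate 4 the WT change was 5.34, adjusted p = 0.0171, and without EZH2nHom saline replicate 5 the EZH2nHom change was 8.23.

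Ptx3, a long pentraxin that binds C1q and other soluble pattern molecules, was low throughout. It stood at 0.451, 0.459, 0.447, 0.350 and 0.346 CPM in WT saline and at 0.864, 0.858, 6.57, 11.02 and 1.54 CPM in WT kainate libraries. Ptx3 in EZH2nHom stood at 0.650, 0.662, 0.296, 0.365 and 0.624 CPM after saline and at 2.84, 23.9, 3.07 and 11.7 CPM after kainate. Every kainate library exceeded all saline libraries of its genotype, with replicates 1 and 2 of WT closest to them. The fitted log2 change was 3.32 ± 0.75 in WT, edgeR adjusted p = 0.00685, and 4.31 ± 0.77 in EZH2nHom, adjusted p = 0.000536. It was 2.56 in WT without WT kainate replicate 4 and 3.49 in EZH2nHom without EZH2nHom kainate replicate 2, and still passed in both.

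Among the surface receptors, Cd44 binds hyaluronan and osteopontin. It stood at 8.31, 5.84, 5.40, 7.19 and 7.23 CPM in WT saline libraries and at 23.2, 24.8, 93.6, 101.1 and 16.5 CPM after kainate. Cd44 in EZH2nHom stood at 5.36, 6.58, 9.07, 4.41 and 3.98 CPM after saline and at 52.9, 149, 54.2 and 81.8 CPM after kainate. The lowest EZH2nHom kainate library lies above 3 of the 5 WT kainate libraries and below the other two. For Cd44 the log2 change was 2.93 ± 0.48 in WT, edgeR adjusted p = 0.000595, and 3.84 ± 0.51 in EZH2nHom, adjusted p = 4.66e-05.

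S1pr3 is a G protein-coupled receptor for sphingosine 1-phosphate. Its WT saline libraries were close together at 7.28, 8.56, 8.22, 8.05 and 8.30 CPM, and its WT kainate libraries ran 9.15, 18.7, 87.4, 113 and 12.97 CPM. S1pr3 in EZH2nHom stood at 8.37, 7.62, 7.76, 4.90 and 5.92 CPM after saline and at 38.6, 53.0, 43.4 and 73.7 CPM after kainate. Replicate 1 of WT kainate barely exceeded the saline libraries, and the WT kainate group spans 12.3-fold against 1.91-fold in EZH2nHom. For S1pr3 the log2 change was 2.57 ± 0.54 in WT, edgeR adjusted p = 0.00429, and 2.92 ± 0.56 in EZH2nHom, adjusted p = 0.00112. In the fit with replicate numbers as a block, WT had 1.86, adjusted p = 0.0625, and no longer passed. Without WT kainate replicate 4 the WT change was 1.98, adjusted p = 0.0172. An exon of Gm32834 lies on the opposite strand of S1pr3, and the strand setting of the counts is not given in the sources used here.

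Cd109, a membrane-anchored protein that binds TGF-beta and its receptors, had the smallest change of the 10. It stood at 6.80, 7.86, 7.98, 9.13 and 6.78 CPM in WT saline and at 9.79, 14.9, 33.5, 37.8 and 14.7 CPM in WT kainate libraries. In EZH2nHom it stood at 10.3, 8.49, 6.19, 6.45 and 7.46 CPM after saline and at 24.2, 50.5, 22.5 and 31.4 CPM after kainate. Replicate 1 of WT kainate is only just above the highest WT saline library, and no groups overlap within a genotype. For Cd109 the log2 change was 1.52 ± 0.31 in WT, edgeR adjusted p = 0.00328, and 2.05 ± 0.33 in EZH2nHom, adjusted p = 0.000191.

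Emp1, a small membrane protein with 4 transmembrane spans, belongs to the PMP22 family. It stood at 2.68, 2.02, 2.07, 2.07 and 1.14 CPM in WT saline and at 3.39, 6.95, 22.1, 20.1 and 5.57 CPM in WT kainate libraries. Emp1 in EZH2nHom stood at 3.47, 1.74, 2.82, 2.46 and 1.55 CPM after saline and at 10.6, 78.6, 15.3 and 23.5 CPM after kainate. Replicate 2 of EZH2nHom kainate stands far above the other 3, and saline and kainate libraries do not overlap in either genotype. The Emp1 log2 change was 2.53 ± 0.57 in WT, edgeR adjusted p = 0.00633, and 3.72 ± 0.59 in EZH2nHom, adjusted p = 0.000211. Without that library the EZH2nHom change was 2.76, adjusted p = 0.000592.

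Steap4, a membrane metalloreductase that acts on iron and copper, had the least certain response in WT. Its WT saline libraries held 0.0645, 0.275, 0.207, 0.458 and 0.0346 CPM, and its WT kainate libraries 0.224, 0.443, 3.16, 13.9 and 0.373 CPM. Steap4 in EZH2nHom stood at 0.217, 0.0414, 0.533, 0.639 and 0.149 CPM after saline and at 5.80, 7.71, 1.48 and 11.3 CPM after kainate. In WT only replicates 3 and 4 exceed all saline libraries, whereas in EZH2nHom all 4 kainate libraries do. In log2 terms Steap4 changed by 4.03 ± 1.07 in WT, edgeR adjusted p = 0.0188, and 4.33 ± 1.05 in EZH2nHom, adjusted p = 0.0055. The WT call was lost without WT kainate replicate 4 (2.23, adjusted p = 0.133), without WT saline replicate 5 (3.75, adjusted p = 0.0502) and with no filter on low counts (adjusted p = 0.0539).

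Of the enzymes, Tgm1, a transglutaminase best known for cross-linking proteins of the skin barrier, was almost unread after saline. The 5 WT saline libraries held 0, 2, 3, 3 and 1 reads and the 5 EZH2nHom saline libraries 0, 2, 0, 3 and 2. After kainate it stood at 1.66, 7.998, 72.5, 129 and 7.59 CPM in WT and at 36.4, 26.1, 38.6 and 95.3 CPM in EZH2nHom. The lowest kainate library, WT replicate 1, held 52 reads, so that saline and kainate libraries are separate in both genotypes. The summed-read ratio, scaled for library size, was 659.9-fold in WT (95% exact interval 347 to 1444) and 1130-fold in EZH2nHom (548 to 2811). Replicate 4 held 3283 of the 5908 WT kainate reads, and without it the WT ratio was 349.5-fold (184 to 765). These intervals cover counting error only and not the spread between libraries. The fitted log2 change was 9.49 ± 1.35 in WT, edgeR adjusted p = 0.000294, and 10.02 ± 1.41 in EZH2nHom, adjusted p = 9.62e-05. Without WT kainate replicate 4 the WT change was 8.53. Of its 32-base words, 4.77% also occur in Gm49067, which overlaps it on the opposite strand.

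Aspg, an asparaginase, had the tightest error of the 10. It stood at 1.06, 0.795, 0.757, 1.08 and 1.18 CPM in WT saline libraries and at 2.43, 4.82, 6.93, 7.26 and 3.60 CPM after kainate. In EZH2nHom it stood at 0.840, 0.621, 0.800, 0.973 and 0.832 CPM after saline and at 6.404, 15.9, 8.15 and 9.61 CPM after kainate. All kainate libraries lie above all saline libraries, with WT replicate 1 lowest and EZH2nHom replicate 2 highest. The Aspg log2 change was 2.35 ± 0.29 in WT, edgeR adjusted p = 7.83e-05, and 3.60 ± 0.31 in EZH2nHom, adjusted p = 9.46e-07.

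**Figure D2:**
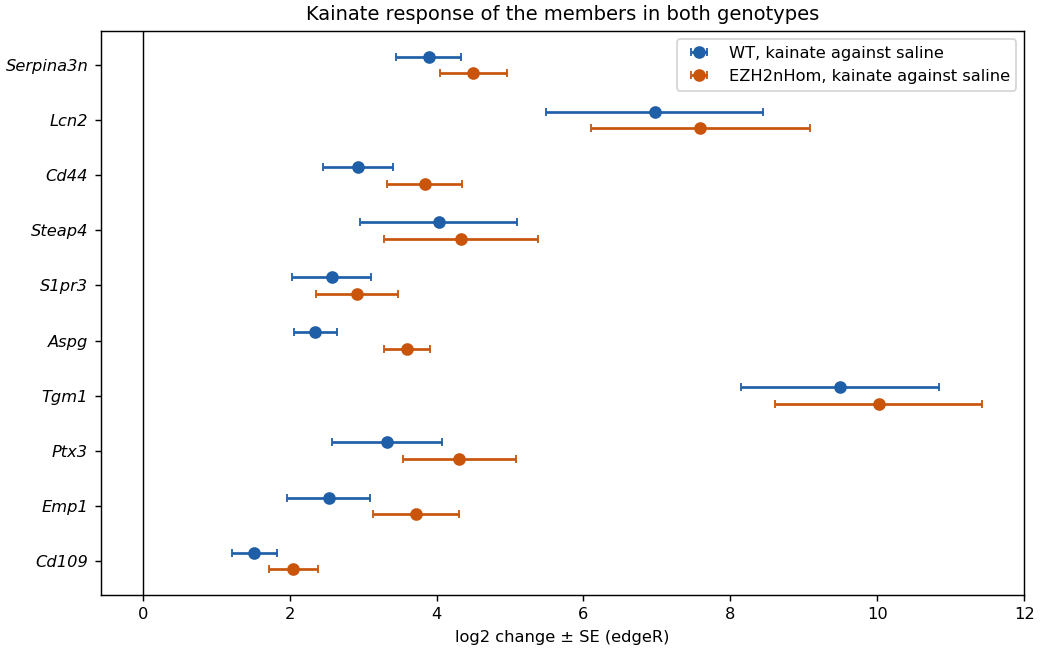
Log2 change ± SE of each member between kainate and saline libraries in WT and EZH2nHom (edgeR). All 10 lie above 0 in both genotypes, from 1.52 for Cd109 in WT upward. The Tgm1 values rest on 9 and 7 saline reads and are also given in the text as ratios of summed reads, scaled for library size.

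Per kilobase of exon, a scale on which genes can be set side by side, Serpina3n led after every treatment. Its mean level was 13.8 CPM per kilobase in WT saline, 204 in WT kainate and 348 in EZH2nHom kainate. Tgm1 went from the lowest place in WT saline (0.0177 CPM per kilobase) to the next highest after Serpina3n in both kainate groups (13.8 in WT and 15.5 in EZH2nHom). S1pr3 at 10.8, Cd44 at 7.65 and Lcn2 at 6.89 CPM per kilobase followed in WT kainate. Cd109 at 3.21, Emp1 at 1.96, Ptx3 at 1.56, Aspg at 1.42 and Steap4 at 1.14 were lower. These are orders of group means, and genes were not tested against each other.

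Apart from the order of the saline groups, group means had the same order for all 10 members. Both saline groups had the lowest means and overlapped, with EZH2nHom the higher for 6 of 10. WT kainate had the middle mean and EZH2nHom kainate the highest mean, and both kainate groups overlapped for all 10. Between the kainate groups only Aspg passed the test, as given below. Members were high in the same libraries, so the 10 are not separate instances of this order.

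Within WT kainate, the same libraries were high for every member. Replicates 3 and 4 were the top pair for all 10, with replicate 4 highest in 9 and replicate 3 highest for Emp1. Replicate 1 was lowest for 8, replicate 2 for Ptx3 and replicate 5 for Cd44. Relative to the saline mean of the same genotype, the median log2 level of the 10 members was 1.05, 1.83, 3.85, 4.32 and 1.53 in replicates 1 to 5. In EZH2nHom kainate it was 3.07, 4.85, 2.94 and 4.14 in replicates 1 to 4. There, replicate 2 was highest for Serpina3n, Cd44, Aspg, Ptx3, Emp1 and Cd109, and replicate 4 for Lcn2, Steap4, S1pr3 and Tgm1. All 4 EZH2nHom kainate libraries exceeded every saline library for 10 of 10 members, while WT kainate replicate 1 did so for 8.

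**Figure D3:**
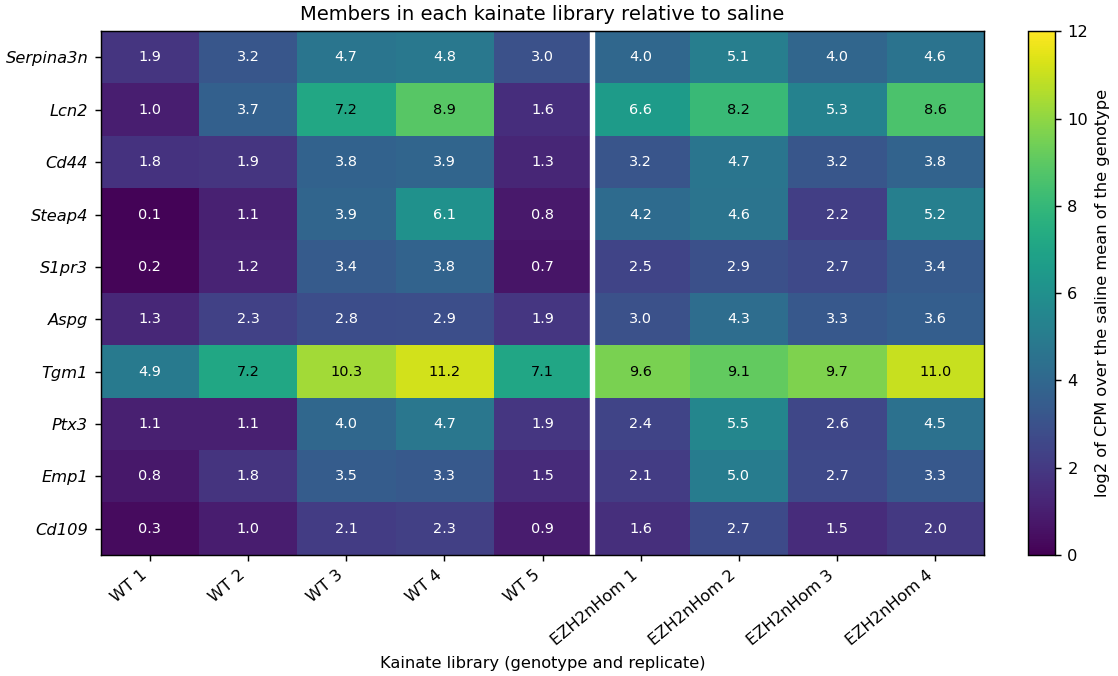
Log2 of CPM over the saline mean of the same genotype for the 10 members (rows) in the 9 kainate libraries (columns). WT replicates 3 and 4 are highest for every member within WT, and WT replicate 1 runs from 0.11 to 4.89.

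2 sample code prefixes occur in both WT groups. One joins WT saline replicate 2 with kainate replicates 2, 3 and 4, where 10 of 10 members were higher in each kainate library, with median ratios of 3.84, 12.9 and 20.7. The other joins WT saline replicate 4 with kainate replicate 1, where 9 of 10 were higher with a median ratio of 2.36. The exception was Steap4, at 0.458 CPM after saline and 0.224 after kainate. A fit on these 6 libraries with the prefix as a block called 0 of 10 members and no gene of the whole table, with log2 changes of 1.11 to 8.63, adjusted p from 0.406 to 0.686.

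Markers of some cell types also changed after kainate, and those of others did not. The summed level of 12 astrocyte markers in WT was 6138 to 6827 CPM after saline and 6684 to 7296 CPM after kainate, and in EZH2nHom 4905 to 5411 and 4097 to 6749 CPM. Saline and kainate libraries overlapped in this sum in both genotypes. Slc1a2 alone held 3829 CPM of the sum in WT saline and did not pass (-0.09 ± 0.13 in WT), while 3 of 12 markers rose in WT and 6 of 12 in EZH2nHom, and 1 fell in each. Aldh1l1, a general astrocyte enzyme, rose by 1.02 ± 0.14 and 1.51 ± 0.15, and the water channel Aqp4 by 0.97 ± 0.19 and 1.25 ± 0.20. The summed level of 10 microglial markers was 386 to 438 CPM in WT saline and 702, 886, 1460, 2095 and 827 CPM in WT kainate replicates 1 to 5, the same order of libraries as the members' median. In EZH2nHom the microglial sum was 320 to 369 CPM after saline and 1321, 821, 1079 and 1875 CPM after kainate. Replicate 2, which had the highest median of the members, had the lowest microglial and the lowest astrocyte sum. Of the microglial markers, 10 of 10 rose in WT and 9 of 10 in EZH2nHom. The summed neuronal markers ran 3338, 2885, 2566, 2142 and 3197 CPM in WT kainate replicates 1 to 5, the reverse order of the members' median. In EZH2nHom kainate replicates 1 to 4 they ran 2457, 3118, 2872 and 2039 CPM. That reverse order was not seen there, as replicate 2 was highest both in this sum and in the members' median.

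Lcn2 is also a gene of neutrophils. The 7 neutrophil markers summed to 1.25, 2.38, 2.32, 6.24 and 1.76 CPM in WT kainate, and to 1.81, 13.9, 1.11 and 2.70 CPM in EZH2nHom kainate. After saline they summed to 1.11 to 4.37 CPM in WT and 0.352 to 4.79 CPM in EZH2nHom. None of the 7 was at 0 over a whole group, and 0 of the 3 that could be tested rose in either genotype. The 6 markers of monocytes and border macrophages summed to 10.6 to 30.7 CPM in WT kainate and 12.8 to 35.6 CPM in EZH2nHom kainate, against 7.54 to 13.8 CPM over both saline groups. T cell markers summed to at most 2.40 CPM in any library and 1 of the 2 tested rose in each genotype, with Cd3e at 0 in WT saline and Cd3g at 0 in EZH2nHom saline. Endothelial markers changed in neither genotype (0 of 8). The part of these cells in the members' rise was not tested.

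**Figure D4:**
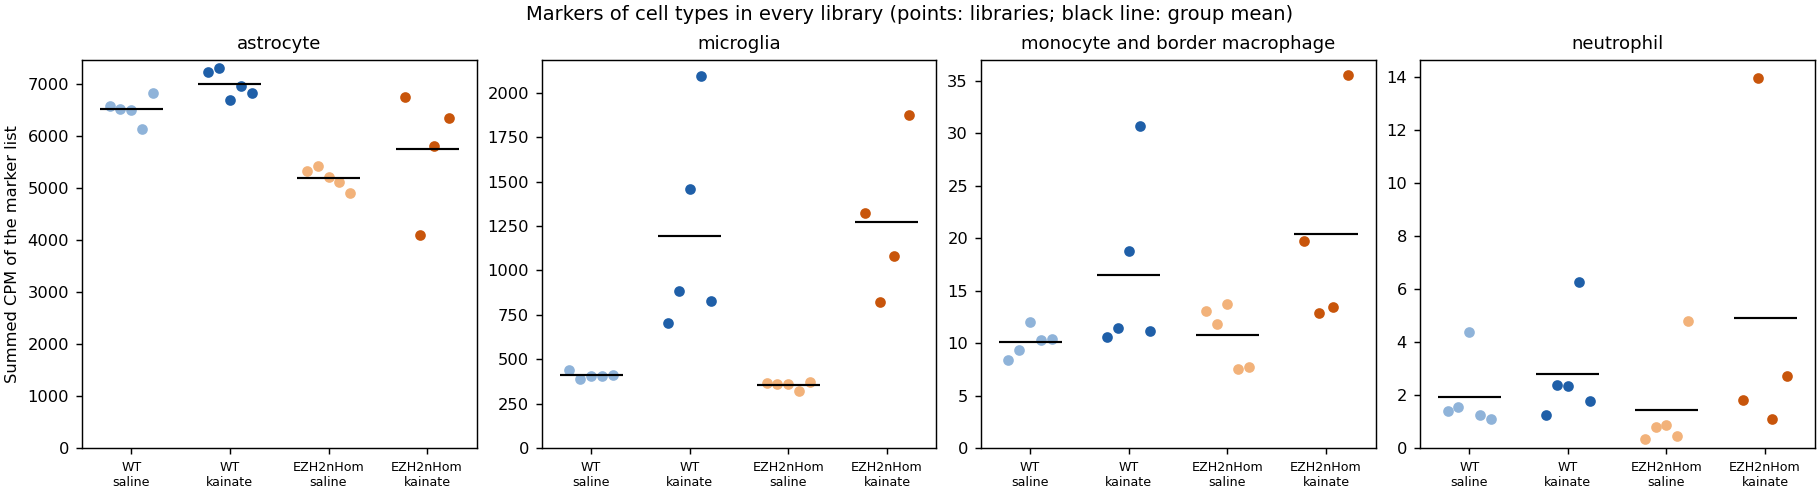
Summed CPM of the markers of 4 cell types in every library (points) with the group mean (black line); axes start at 0 and differ between panels. Microglial sums separate kainate from saline in both genotypes, and the neutrophil sum is highest at 13.9 CPM in EZH2nHom kainate replicate 2.

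In the comparison of genotypes after saline, 0 of 10 members passed the test, where 13.5% of all genes did in either direction (edgeR), and 0 had an unadjusted p under 0.05. The DESeq2 Wald test also called 0 of 10. The log2 differences, EZH2nHom minus WT, ran from -0.35 for Tgm1 to 0.58 for Steap4. For Serpina3n the difference was 0.16 with a 95% interval of -0.62 to 0.94, for Cd109 0.01 (-0.60 to 0.62) and for Aspg -0.25 (-0.85 to 0.35). These intervals use a spread shared with the kainate groups. For Serpina3n the SD of log2 CPM was 0.07 in WT and 0.25 in EZH2nHom after saline, and 1.24 and 0.55 after kainate. Its interval is thus wider than the saline libraries alone would give. For Tgm1 and Lcn2 the saline counts are too few to bound a difference closely.

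After kainate, Aspg was the one member that differed between genotypes, and it was higher in EZH2nHom. That is 1 of 10, where 4.56% of all genes were higher. Its mean was 5.01 ± 2.09 CPM in WT kainate (SD, n = 5) and 10 ± 4.11 CPM in EZH2nHom kainate (SD, n = 4), and 3 of the 4 EZH2nHom libraries exceeded every WT library. The log2 difference was 1.0 ± 0.28, edgeR adjusted p = 0.0357. Blocking on the replicate number gave 0.93, adjusted p = 0.0547, and a covariate for structural RNA gave 0.95, adjusted p = 0.059. Fitted on only both kainate groups it gave adjusted p = 0.256. The call was also lost without WT kainate replicate 1, 2 or 5 (0.83, 0.99 and 0.90) and without EZH2nHom kainate replicate 2 or 4 (0.69 and 1.02).

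The other 9 members had higher means in EZH2nHom kainate than in WT kainate and did not pass. Their SEs use a spread shared with the saline groups, so they can be too small where kainate libraries vary more. Emp1 averaged 11.6 ± 8.78 CPM in WT and 32 ± 31.5 CPM in EZH2nHom, a log2 difference of 1.46 ± 0.55, edgeR adjusted p = 0.107. For Ptx3 it was 1.32 ± 0.67 (adjusted p = 0.241), for Steap4 0.88 ± 0.90, for Lcn2 0.82 ± 1.03, for Serpina3n 0.77 ± 0.41 and for Cd44 0.71 ± 0.46. For Cd109 it was 0.54 ± 0.32, with a 95% interval of -0.08 to 1.16. For Tgm1 it was 0.17 ± 0.79 (-1.38 to 1.73) and for S1pr3 0.12 ± 0.53 (-0.93 to 1.16). Both kainate groups overlapped for 10 of 10 members, and 4.13% of all genes were higher without overlap. Single libraries carried weight here, in both directions. Without EZH2nHom kainate replicate 2 the difference was 0.51 for Emp1 (adjusted p = 0.592) and 0.50 for Ptx3 (adjusted p = 0.724). Without WT kainate replicate 4, Steap4 (2.68, adjusted p = 0.0349) and Ptx3 (2.09, adjusted p = 0.0468) passed beside Aspg, and without EZH2nHom kainate replicate 1, Emp1 did (1.76, adjusted p = 0.0434). Lcn2, at 2.45 without WT kainate replicate 4, still did not pass (adjusted p = 0.12).

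**Figure D5:**
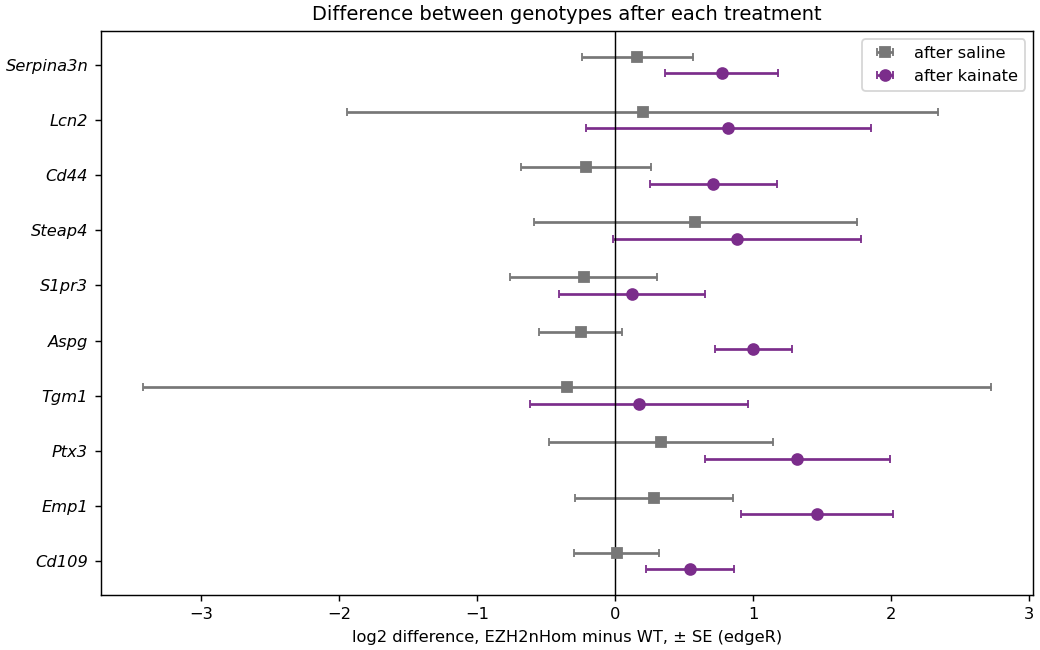
Log2 difference ± SE between EZH2nHom and WT for each member after saline (squares) and after kainate (circles), from edgeR. The circles lie at 0.12 to 1.46 and the squares at -0.35 to 0.58; Aspg after kainate, at 1.0, is the only difference that passed the test.

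Other measures differed between the kainate groups too. The share of reads in structural small RNAs was 0.0693 to 0.215% in WT kainate and 0.194 to 0.771% in EZH2nHom kainate. It was 0.0599 to 0.0885% in WT saline and 0.216 to 0.762% in EZH2nHom saline, so the genotypes did not overlap after saline. Within WT, every kainate library but replicate 1, the one with the lowest median level of the members, lay above all saline libraries. The 5 red blood cell markers rose in WT and not in EZH2nHom (5 and 0 of 5), and all 5 were lower in EZH2nHom kainate than in WT kainate. Of the 12 astrocyte markers, 4 were lower in EZH2nHom than in WT after saline and 1 after kainate, and 0 were higher after either. After saline, 13.5% of all genes differed in either direction. Slc1a2 was lower after both (-0.52 ± 0.13 and -0.61 ± 0.14). The summed astrocyte markers of the genotypes did not overlap after saline (4905 to 5411 CPM in EZH2nHom, 6138 to 6827 CPM in WT). The part of these measures in the members' differences was not tested beyond the covariate above.

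The difference of the kainate responses between genotypes was positive for 10 of 10 members and passed for none. Of all genes, 0.0% passed (edgeR), with 1685 genes at an unadjusted p under 0.05, and the DESeq2 Wald test called 12 genes and 0 members. Aspg was the 1 member with an unadjusted p under 0.05, at 1.25 ± 0.42, unadjusted p = 0.00699 and adjusted p = 0.463. The values were 1.19 ± 0.79 for Emp1, 0.92 ± 0.66 for Cd44 and 0.99 ± 1.06 for Ptx3. A larger response in EZH2nHom was not shown for any member.

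Genes known to act with the members were counted from lists chosen by function. Beside these and the later lists, 9.47% of all genes rose in WT and 14.3% in EZH2nHom. No list was tested against those shares. Of the Cd44 ligands and hyaluronan enzymes, 4 of 10 rose in WT and 4 of 10 in EZH2nHom, where 1 fell. Spp1, which encodes osteopontin, went from 4.36 to 179 CPM in WT (log2 change 5.37 ± 1.21) and from 4.45 to 280.4 CPM in EZH2nHom (5.99 ± 1.26). Hmmr, another hyaluronan receptor, rose by 3.36 ± 0.52 and 3.45 ± 0.52, Has2, a hyaluronan synthase, by 2.18 ± 0.36 and 1.82 ± 0.36, and Vcan, versican, by 0.93 ± 0.21 and 0.98 ± 0.22. Without WT kainate replicate 4 Spp1 had 4.10 in WT, and without EZH2nHom kainate replicate 2 it had 4.85 in EZH2nHom. The gene that fell was the synthase Has3 (-1.14, adjusted p = 0.0427), a call lost in 15 of 19 fits that each left out 1 library (-0.85 without EZH2nHom kainate replicate 2).

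Of the genes of sphingosine 1-phosphate, 2 of 8 rose in WT and 3 of 8 in EZH2nHom, where 1 fell. Sgpl1, the lyase that degrades it, rose by 1.01 ± 0.20 in WT and 1.53 ± 0.21 in EZH2nHom, and the receptor S1pr2 rose by 0.78 ± 0.22 and 0.87 ± 0.23. Sphk1 and Sphk2 are kinases that make sphingosine 1-phosphate. Sphk2, at 14.5 CPM in WT saline against 0.941 CPM for Sphk1, did not pass (0.02 ± 0.17 in WT and -0.05 ± 0.18 in EZH2nHom). Sphk1 rose in EZH2nHom (3.48 ± 0.70, edgeR adjusted p = 0.00136) and had 0.57 ± 0.66 in WT, adjusted p = 0.65. The size of this change rests on 1 library. EZH2nHom kainate replicate 2 stood at 28.0 CPM, the other 3 at 1.48, 1.85 and 1.90 CPM, and the WT kainate libraries at 0.913 to 2.24 CPM. Without replicate 2 the EZH2nHom change was 1.24, adjusted p = 0.00414. The genotype difference after kainate was 2.56 ± 0.67, edgeR adjusted p = 0.0271, and without that library 0.32, adjusted p = 0.581. S1pr1, the receptor with the highest level of this group at 142 CPM in WT saline, fell in EZH2nHom (-0.43 ± 0.14, adjusted p = 0.0267), a call lost in 9 of 19 fits that each left out 1 library. That of S1pr2 in WT was lost in 5 (0.61 without WT kainate replicate 4).

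Of the proteases that serpins inhibit, 2 of 6 could be tested and Klk6 rose, by 4.09 ± 0.69 in WT and 5.25 ± 0.74 in EZH2nHom. Of the Ptx3 ligands, 4 of 6 rose in WT and 5 of 6 in EZH2nHom. C1qa, C1qb and C1qc, the chains of complement C1q, rose by 2.35 to 2.46 in WT and 3.06 to 3.12 in EZH2nHom. Of the genes around Cd109, Tgfb1, Tgfbr1, Tgfbr2 and A2m rose in both genotypes and Tgfb2 fell in both. A2m, alpha-2-macroglobulin, a member of the same protein family as Cd109, rose by 3.15 ± 0.66 and 3.72 ± 0.69. The Lcn2 receptors Slc22a17 and Lrp2 did not rise, and Slc22a17 fell in EZH2nHom (-0.34 ± 0.12, adjusted p = 0.0344), a call lost in 14 of 19 fits that each left out 1 library. In WT the calls on Tgfb1 (1.08, adjusted p = 0.0594) and Tgfb2 (-0.36, adjusted p = 0.0738) were lost without WT kainate replicate 4. The WT call on Tgfb2 was lost in 4 of 19 such fits.

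Relatives of the members did not all rise. Of the Serpina3 family, 4 of the other 10 genes could be tested, and 1 rose in WT and 3 in EZH2nHom. Serpina3i rose by 4.02 ± 1.01 in WT from 0.0359 CPM, and Serpina3g did not pass in either genotype. Serpina3c, Serpina3h and Serpina3i reached at most 0.298, 0.129 and 0.0892 CPM in any saline library. They were thus tested only through their kainate libraries, and their calls add nothing to the counts of this family. Emp3 rose by 2.28 ± 0.40 and 2.83 ± 0.41 and Pmp22 by 0.66 ± 0.16 and 1.07 ± 0.17, whereas Emp2 did not pass (0.25 ± 0.14 and 0.20 ± 0.14). Steap3 rose by 0.87 ± 0.21 and 1.02 ± 0.22, and Steap2 fell in EZH2nHom (-1.32 ± 0.41). Steap2 stood at 38.1, 14.8, 38.0, 49.9 and 13.97 CPM in EZH2nHom saline and at 10.9 to 15.4 CPM after kainate. The summed choroid plexus markers were 2773, 38.3, 3172, 3733 and 46.3 CPM in the same saline libraries and 20.9 to 699 CPM after kainate, so both were high in replicates 1, 3 and 4. The part of this tissue in the Steap2 difference was not tested. The Steap2 call was lost in 4 of 19 fits that each left out 1 library. These left out EZH2nHom saline replicate 4 (-1.09, adjusted p = 0.0628) or EZH2nHom kainate replicate 1, 2 or 4. Tgm2, the transglutaminase with the broadest tissue range, rose by 0.99 ± 0.28 and 1.48 ± 0.30. Without WT kainate replicate 4 the WT calls on Tgm2 (0.68, adjusted p = 0.116) and Serpina3i (3.22, adjusted p = 0.058) were lost. The WT call on Tgm2 was lost in 5 of 19 such fits. The neuronal pentraxin Nptx2 rose by 1.21 ± 0.26 and 1.61 ± 0.27, and Nptx1 and Nptxr did not pass. Of 3 genes of asparagine metabolism none rose, and Asns, asparagine synthetase, fell in EZH2nHom (-0.41 ± 0.14), a call lost in 14 of 19 fits that each left out 1 library (-0.30 without EZH2nHom kainate replicate 1).

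Other reactive astrocyte genes rose beside the members. Of the other pan-reactive genes, 5 of 7 rose in WT and 7 of 7 in EZH2nHom, with median log2 changes of 3.27 and 4.45. Gfap, the astrocyte intermediate filament, went from 338 to 3257 CPM in WT and from 324 to 3684 CPM in EZH2nHom. Osmr, the oncostatin M receptor, rose by 2.55 ± 0.44 and 3.41 ± 0.46, and Timp1, a secreted inhibitor of metalloproteinases, by 6.52 ± 0.84 and 7.61 ± 0.84. Timp1 reached at most 0.304 CPM in any saline library, so it was tested only through its kainate libraries. Its calls add nothing to the counts of the other pan-reactive genes. Of the other A2-type genes, 3 of 6 tested rose in WT and 5 of 6 in EZH2nHom, with medians of 1.22 and 2.36, and of the A1-type genes 9 of 12 and 10 of 12, with medians of 1.98 and 2.72. Amigo2 of the A1-type list fell in EZH2nHom (-0.69 ± 0.21), a call lost in 3 of 19 fits that each left out 1 library. Gbp2, an interferon-induced GTPase of the A1-type list, rose by 2.92 ± 0.40 and 4.02 ± 0.42 and was higher in EZH2nHom than in WT kainate by 1.42 ± 0.38, edgeR adjusted p = 0.0293, a call lost in 4 of 19 fits that each left out 1 library (1.02 without EZH2nHom kainate replicate 4). Cd14, an endotoxin co-receptor of the A2-type list, rose by 1.69 ± 0.34 and 2.69 ± 0.36 (1.98 in EZH2nHom without kainate replicate 2). The 6 pan-reactive members (medians 3.41 and 4.09) and the 4 A2-type members (2.93 and 4.02) were not tested against each other.

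Of the upstream signals and receptors, 11 of 17 tested rose in WT and 14 of 17 in EZH2nHom. In this list and the next, Osm, Il1b, Tnf and Fosl1 had at most 0.207 CPM in any saline library. They were thus tested only through their kainate libraries, and their calls add nothing to these counts. Cntf rose by 1.86 ± 0.27 in WT and 2.59 ± 0.28 in EZH2nHom, and C1qb by 2.35 ± 0.29 and 3.06 ± 0.31. Of the upstream factors, 6 of 22 rose in WT, where 9.47% of all genes did, and 17 of 22 in EZH2nHom, where 14.3% did. Stat3 rose by 1.05 ± 0.26 and 1.72 ± 0.28, and Socs3, its target and inhibitor, by 3.25 ± 0.77 and 4.82 ± 0.80. Cebpd, a C/EBP factor, rose in EZH2nHom (2.85 ± 0.54), had 0.74 ± 0.51 in WT, and was higher in EZH2nHom than in WT kainate by 2.13 ± 0.52, edgeR adjusted p = 0.0206. In EZH2nHom kainate it stood at 7.99, 69.2, 6.84 and 21.6 CPM, and in WT kainate at 2.18 to 9.65 CPM. Without EZH2nHom kainate replicate 2 the EZH2nHom change was 1.73, adjusted p = 0.00311, and the genotype difference 1.01, adjusted p = 0.127. Without the same library Socs3 had 3.50 in EZH2nHom. Without WT kainate replicate 4, Socs3 had 2.55 in WT and the WT call on Stat3 was lost (0.83, adjusted p = 0.0528). The difference between 6 and 17 calls is not itself a test of the genotypes.

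Among 15247 genes with a mean of at least 1 CPM, those most like each member over the 19 libraries were found by the mean absolute difference of log2 CPM after centring each gene. Vim, vimentin, was nearest to Serpina3n at 0.21, followed by Tubb6 at 0.26, where the median gene stood at 1.98. Pros1 (0.16) and Npl (0.19) were nearest to Cd109, Ifi30 (0.30) and Osmr (0.31) to Cd44, and Osmr (0.34) and S100a4 (0.35) to Emp1. S100a6 (0.26) and C1qc (0.28) were nearest to Aspg, Itgb2 (0.27) and Fcrls (0.30) to S1pr3, and Ms4a6d (0.44) and Ifi30 (0.45) to Ptx3. Fcrls is in the microglial marker list. Apoc2 (0.62) and Slfn4 (0.88) were nearest to Lcn2, Lgals3 (0.85) and Ifi44 (0.88) to Steap4, and Timp1 (1.22) and Cst7 (1.5) to Tgm1. For Serpina3n, S1pr3, Aspg and Emp1 the nearest of the other members was Cd44, at 0.40 to 0.48. All libraries of a treatment share its response, so these distances are a description.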

How the data were processed

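Per the labels' protocols, libraries were made from hippocampal total RNA after ribosomal RNA was removed, and were sequenced on an Illumina instrument. The authors deposited whole-number read counts per gene, made on build mm39, per the submitters' processing notes, which also name DESeq2 and DESeq. The aligner, counter, annotation and strand setting are not given in the sources used here. Gene symbols came from another deposited table, whose signal is the same counts after the authors divided each library by its size factor. The EZH2nHom kainate libraries are numbered 1 to 4 in their titles and 2 to 5 in their descriptions and columns. Title numbers were used, also for the replicate block, and a block on the other numbers was not run.

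The tests used edgeR 4.0.16 (with limma 3.58.1) under R 4.3.3, DESeq2 1.42.0 for an alternative, and Python 3.11.15 for summaries. The filterByExpr rule, given the groups, kept 19234 of 55416 genes, which were scaled by TMM and fitted for all 19 libraries with a robust quasi-likelihood model of 4 group means. All p-values are two-sided and were adjusted by the Benjamini-Hochberg method across the genes kept, with a threshold of 0.05. SE is the size of the log2 change over the square root of the F statistic, and 95% intervals of log2 differences take a normal error of that SE. CPM is the count per 1000000 reads of the TMM-scaled library. For ratios of summed reads, each sum was divided by the summed TMM-scaled library sizes. Exon lengths and shared 32-base words come from GENCODE vM21 (GRCm38), which is not the build of the counts. The method was tested on simulated data.

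The 10 members and all gene lists were chosen with earlier results of these data known. All members were named. Of each list, up to 4 genes with the smallest p in a kainate comparison, and relatives, ligands or receptors of a member, were named. The nearest 2 genes to each member were named by distance. Has3, Cebpd, Amigo2 and the promoters printed were picked after their values or matches were seen.

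Over genes of at least 5 CPM, deviations of same-numbered WT libraries correlated at 0.249 to 0.594 in 5 pairs. Over all genes kept the lowest was 0.072. EZH2nHom pairs by title number ran from -0.035 to 0.197 at 5 CPM and from -0.047 to 0.084 over all genes, and the labels state no pairing, so the replicate block is an alternative. Others were the Wald test and the size factors of DESeq2, no filter, a stricter filter (1 CPM in 4 libraries), only the groups compared, Y-linked and structural RNA covariates, shared code prefixes, a threshold of 0.01 and leaving out each library. Leaving out libraries for the genes of the lists and for the Tgm1 ratio, and counting members that pass the filter from saline libraries, were added after seeing the data.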

Additional observations from a re-analysis of the deposited data

Results flagged for a closer look

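Steap4 in WT kainate replicate 4 stood apart from its group, at 13.9 CPM against 3.16 CPM in the next library. The gap to the next library was 0.785 of the range of the 5 libraries, above the Dixon value of 0.71. It was 1 of 40 groups of libraries tested to show such a gap, where chance gives about 1 in 20. The same library was highest in its group for 9 of the 10 members.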

How the results depend on the processing

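The kainate response kept its direction for all 10 members in both genotypes under every alternative run. In EZH2nHom all 10 passed each time, but the fit with a shared code prefix as a block could not be run there. In WT the count was 9 or 10 of 10 except in the fit on 6 libraries with a shared code prefix as a block, where it was 0. Fitted on only the WT groups, Lcn2 was removed by the filter and the other 9 passed. With the replicate block the WT count was 9, S1pr3 having 1.86 (adjusted p = 0.0625), and Steap4 and Ptx3 gave 3.34 and 2.70. In EZH2nHom Emp1 gave 3.11 with the block.

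The count of 1 member higher in EZH2nHom after kainate was 0 at a threshold of 0.01, 0 when only the groups compared were fitted, 0 with the replicate block and 0 with the structural RNA covariate, and ran from 0 to 3 when each library was left out in turn. The block changed no other call on a member. After saline and for the difference of responses the count was 0 under every alternative run.

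Signs changed for S1pr3 and Tgm1 between genotypes after kainate. Leaving out 1 library gave S1pr3 -0.14 to 0.71 and Tgm1 -0.37 to 1.14, and the structural RNA covariate gave Tgm1 -0.61. For the difference of responses, leaving out 1 library gave Steap4 -0.17 to 2.10 and Tgm1 -0.02 to 1.49. After saline, 7 of 10 members changed sign under some alternative, between -1.79 and 1.06. The causes were not tested. Low saline counts of Tgm1, Lcn2 and Steap4 limit their differences. Of the list genes called, 41 of 51 in WT and 64 of 79 in EZH2nHom kept their kainate call in all 19 fits that each left out 1 library, and 0 of 7 kept a genotype call after kainate.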
